A study of Rattus norvegicus with 23 samples.

Results

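Connexins are the proteins of gap junctions, and the genes described here are the 5 connexin genes listed for the heart and its vessels, *Gja1*, *Gja4*, *Gja5*, *Gjc1* and *Gjd3*. A probe belonged to one of them where its transcript accession in the scanner files is assigned to that gene in RefSeq. Of the 5 genes, 4 had a probe, with 5 probes in all, out of 16544 genes with a symbol. *Gjd3* had no matching probe and was not analysed here. Where a gene had more than 1 probe, each array gave the value of its highest one, and this normalized signal was compared over the 6 regions.

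RNA of male Wistar rats aged 8 to 11 weeks was measured on 23 Agilent arrays of 1 color, where a spot is brighter the more Cy3-labeled cRNA its probe binds. The regions were the left atrium next to the pulmonary vein (LA, 4 arrays), the left ventricle (LV, 4 arrays), the right ventricle's free wall (RV, 3 arrays), the sinoatrial node region (SA, 4 arrays), the pulmonary vein (PV, 4 arrays) and the pulmonary artery (PA, 4 arrays). The strain was the same in all groups, no group is described as transgenic, and all rats were under pentobarbital with heparin when the heart and lungs were taken. The LV of a heart was cut into 3 pieces that served as samples, so that LV arrays may come from the same heart, and their SD may then understate the spread between rats. An SA sample pooled the tissue of 2 rats, 12 rats were used in all, and the sources do not say which arrays came from separate rats, so that the p-values measure the spread between these samples only.

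A gap junction channel joins the cytoplasm of neighboring cells and is made of a hexamer of connexins from each side. Connexin 43 (*Gja1*) is the main connexin of the working myocardium, and connexin 45 (*Gjc1*) is known from nodal tissue and the early heart. Connexin 40 (*Gja5*) is known from arterial endothelium, the ventricular conduction system and, in many mammals, atrial myocytes, and connexin 37 (*Gja4*) from endothelium.

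The largest contrasts between regions were those of *Gja5* and *Gja1*, and the genomic stretch just before each of these genes is shown for that reason. The sequences are those of RefSeq promoters on GRCr8, which held 3 of the 5 genes (*Gja1*, *Gja4* and *Gja5*), and they end at the base before the annotated gene. Capitals mark the cores of the motifs that were searched on both strands, and no capitals overlap. The T-box core was searched as GGTGT. The NK2 homeobox core was searched as AAGTG. The GATA core was searched as GATAA, the TATA box as the letters TATAAA, and the GC box by the run GGGCGG. The *Gja5* stretch, on the + strand at chr2:187290977-187291226, and the *Gja1* stretch, on the + strand at chr20:36302314-36302489, read as follows.
Gja5: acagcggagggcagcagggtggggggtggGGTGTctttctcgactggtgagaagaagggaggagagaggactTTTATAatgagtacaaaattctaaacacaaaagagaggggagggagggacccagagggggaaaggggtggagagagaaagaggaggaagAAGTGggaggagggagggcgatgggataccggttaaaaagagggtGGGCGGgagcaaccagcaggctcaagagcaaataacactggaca
Gja1: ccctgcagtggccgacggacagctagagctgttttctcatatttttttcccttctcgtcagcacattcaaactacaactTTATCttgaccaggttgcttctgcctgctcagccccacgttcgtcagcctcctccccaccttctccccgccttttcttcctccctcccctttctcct

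The 250 bases before *Gja5* held 1 GGTGT, 1 AAGTG, 1 TATAAA on the opposite strand and 1 GGGCGG, at 221, 89, 178 and 44 bases before the gene. Of 33469 promoters of the same length, 36.6% held the first of these motifs, 40.6% the second, 12.9% the third and 30.5% the fourth, on either strand. The 176 bases before *Gja1* held only GATAA, on the opposite strand and starting 97 bases before the gene, which 18.2% of promoters cut to that length held. The 250 bases before *Gja4* held only GGGCGG, at 139 bases. These are matches of letters, and binding of a factor was not measured.

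All 4 measured connexins differed among the 6 regions. In the moderated F-test of limma, with Benjamini-Hochberg adjustment over 16089 genes, 4 of 4 passed an adjusted p of 0.05, where 64.4% of all genes tested did. The difference between the highest and the lowest regional mean on the log2 scale was 3.95 for *Gja5* (PA against LA, 15.5-fold, adjusted p = 4.87e-11), 2.73 for *Gja1* (RV against PA, 6.62-fold, adjusted p = 6.35e-11), 1.09 for *Gjc1* (PA against RV, 2.12-fold, adjusted p = 9.26e-08) and 0.65 for *Gja4* (PA against SA, 1.57-fold, adjusted p = 0.00637). The median of this range over all genes tested was 1.04. The range of *Gja5* exceeded that of 96.5% of the genes, the range of *Gja1* that of 90.9%, the range of *Gjc1* that of 52.5% and the range of *Gja4* that of 24.2%. *Gja1* was lowest and the other 3 connexins were highest in PA. All 4 genes were well above background on all 23 arrays.

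**Figure D1:**
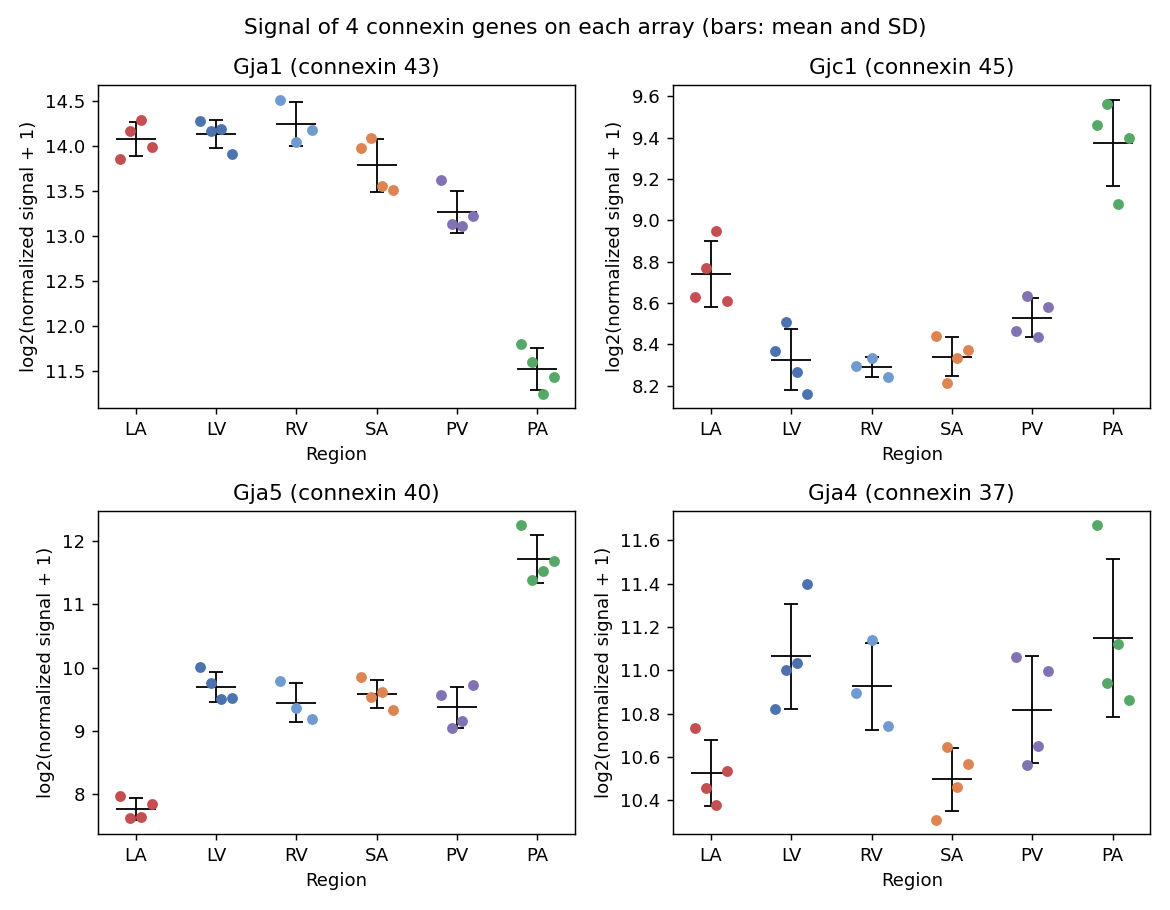
Log2(normalized signal + 1) of *Gja1*, *Gjc1*, *Gja5* and *Gja4* on each of the 23 arrays (points), by region, with the mean and SD of the region in black and an axis of its own for each gene. PA lies apart from the other regions for *Gja1*, *Gja5* and *Gjc1*, and LA lies below all other regions for *Gja5*.

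*Gja1*, the connexin of working myocytes (chromosome 20, 36302490 to 36315010 on GRCr8), was measured by 1 probe. Its normalized signal was 14806, 18275, 19981 and 16267 on the LA arrays, 19780, 18314, 18560 and 15413 on the LV arrays and 23349, 16829 and 18497 on the RV arrays. It was 16059, 17425, 12000 and 11675 on the SA arrays, 12525, 8956, 8812 and 9495 on the PV arrays and 3542, 3103, 2422 and 2751 on the PA arrays. The 4 PA arrays lay below all other arrays, the 4 PV arrays lay below every LA, LV and RV array, and the SA arrays overlapped both PV and the other heart regions.

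On the log2 scale the mean of *Gja1* was 14.07 ± 0.19 in LA (SD, n = 4), 14.13 ± 0.15 in LV (n = 4), 14.24 ± 0.24 in RV (n = 3), 13.78 ± 0.29 in SA (n = 4), 13.27 ± 0.24 in PV (n = 4) and 11.51 ± 0.23 in PA (n = 4). *Gja1* was higher in PV than in PA by 1.75 ± 0.16 (SE, 3.36-fold, limma adjusted p = 1.37e-08). It was higher in LA than in PV by 0.81 ± 0.16 (1.75-fold, adjusted p = 0.00198), in LV than in PV by 0.87 (adjusted p = 0.000329) and in RV than in PV by 0.98 (adjusted p = 0.000281). In the order of the means, RV, LV, LA and SA did not differ between neighbors beyond their spread, and the difference of SA and PV was 0.52 ± 0.16 (adjusted p = 0.0886). This last difference and that of RV and SA (0.46, adjusted p = 0.0663) passed when 1 array was left out, without PV replicate 1 for the first (0.63, adjusted p = 0.0437) and without SA replicate 2 for the second (0.56, adjusted p = 0.0314). Both also passed when the p-values of all 15 pairs were adjusted jointly (adjusted p = 0.0175 and 0.0489). The difference of RV and SA passed as well with the slide as a block (0.55, adjusted p = 0.0395) and with a trend in the prior variance (0.46, adjusted p = 0.0436).

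In PA the low *Gja1* went with a shift in the markers of muscle cells. The log2 of the summed signal of 5 cardiomyocyte markers (*Tnnt2*, *Actn2*, *Myh6*, *Ryr2* and *Pln*), of 6 listed, was 19.72 to 20.44 over all arrays outside PA and 15.08 to 16.52 on those of PA. The sum of 6 smooth muscle markers was 14.65 to 16.08 outside PA and 18.87 to 19.11 in PA. PV had cardiomyocyte marker sums of 19.93 to 20.12 and those of LA were 19.72 to 19.98, while *Gja1* was lower in PV on every array. Other marker sums were higher in PV than in LA without overlap, at 15.59 to 16.08 against 14.65 to 14.93 for smooth muscle, 17.05 to 17.50 against 15.91 to 16.93 for 5 fibroblast markers and 12.24 to 12.72 against 10.60 to 11.18 for 4 Schwann cell markers. The same held for the sums of pacemaker markers (11.31 to 11.69 against 8.85 to 9.48), ventricular myocyte markers (16.07 to 16.66 against 14.74 to 15.60), adipocyte markers (13.79 to 14.33 against 12.75 to 13.60) and erythroid markers (10.65 to 11.24 against 9.30 to 9.99). Of the fibroblast markers, *Pdgfra* (12.07 in PV, 12.34 in LA) and *Tcf21* (8.82 and 9.08) had lower means in PV. *Col1a1* (16.604 in PV, 14.997 in LA), *Dcn* (15.67 and 15.60) and *Lum* (11.61 and 11.44) had higher ones. Of the ventricular myocyte markers, *Irx4* had a mean of 5.52 in LA and was well above background on no PV array. The part of the cell types in the differences of *Gja1* between PA, PV and the heart was not tested, and in bulk tissue fewer cells of a type and less RNA per cell cannot be told apart.

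*Gjc1*, or connexin 45 (chromosome 10, 88262840 to 88285646), was also measured by 1 probe. Its normalized signal was 395, 436, 494 and 390 in LA, and 329, 363, 307 and 285 in LV. It was 314, 322 and 302 in RV, 347, 296, 321 and 331 in SA, 353, 396, 345 and 382 in PV and 704, 756, 541 and 674 in PA. The 4 PA arrays were the highest, and the 4 LA arrays lay above all arrays of LV, RV and SA but overlapped PV.

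The mean log2 signal of *Gjc1* was 9.38 ± 0.21 in PA (SD, n = 4), 8.74 ± 0.16 in LA (n = 4), 8.53 ± 0.09 in PV (n = 4), 8.34 ± 0.10 in SA (n = 4), 8.33 ± 0.15 in LV (n = 4) and 8.29 ± 0.05 in RV (n = 3). *Gjc1* was higher in PA than in PV by 0.85 ± 0.10 (SE, limma adjusted p = 7.69e-07) and than in LA by 0.64 ± 0.10 (adjusted p = 2.79e-05). The smooth muscle sums were higher in PA (18.87 to 19.11, against 15.59 to 16.08 in PV) and the cardiomyocyte sums lower (15.08 to 16.52, against 19.93 to 20.12). The fibroblast sums were also higher (17.69 to 17.92, against 17.05 to 17.50), though *Pdgfra* and *Tcf21* of that list were lower in PA. The part of these cell types in the high *Gjc1* of PA was not tested. LA exceeded LV by 0.41 ± 0.10 (1.33-fold, adjusted p = 0.00393), RV by 0.45 ± 0.11 (adjusted p = 0.00496) and SA by 0.40 ± 0.10 (adjusted p = 0.0125). These 3 differences of LA did not pass after a normexp background correction (0.24, 0.29 and 0.27, with adjusted p = 0.0652, 0.0659 and 0.0609). In SA, the region of the pacemaker, *Gjc1* differed from LV by 0.01 ± 0.10 (adjusted p = 0.941), although the log2 of the summed signal of 4 pacemaker markers was 12.04 to 12.22 in SA and 8.84 to 10.18 in LV. Of these markers, *Isl1* was well above background on only 1 of 4 SA arrays and on no LV array.

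*Gja5*, or connexin 40 (chromosome 2, 187291227 to 187310770), had the widest range of the 4 genes. Its normalized signal was 250, 196, 197 and 228 on the LA arrays. It was 1028, 860, 724 and 735 in LV, 886, 657 and 583 in RV, 924, 744, 780 and 640 in SA, 755, 524, 570 and 848 in PV, and 4870, 2674, 2967 and 3300 in PA. LA was lower than every array of the other 5 regions and PA higher than every array of them, while LV, RV, SA and PV overlapped one another.

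On the log2 scale the mean of *Gja5* was 7.77 ± 0.17 in LA (SD, n = 4), 9.70 ± 0.24 in LV (n = 4), 9.45 ± 0.31 in RV (n = 3), 9.58 ± 0.22 in SA (n = 4), 9.37 ± 0.33 in PV (n = 4) and 11.71 ± 0.38 in PA (n = 4). LA was below LV by 1.93 ± 0.19 (SE, 3.81-fold, limma adjusted p = 2.47e-07), below SA by 1.82 ± 0.19 (3.52-fold, adjusted p = 4.76e-06), below PV by 1.61 ± 0.19 (3.04-fold, adjusted p = 2.01e-05) and below RV by 1.68 ± 0.21 (3.21-fold, adjusted p = 5.35e-06). PA exceeded PV by 2.34 ± 0.19 (5.07-fold, adjusted p = 3.24e-09) and LV by 2.02 ± 0.19 (4.05-fold, adjusted p = 2.09e-08). Among LV, RV, SA and PV no pair differed beyond the spread, with differences of at most 0.32 ± 0.19 (LV and PV, adjusted p = 0.222).

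*Gja5* was the only connexin measured by 2 probes, and both gave the same picture. The probe taken was the brighter on 23 of 23 arrays, and the log2 values of the 2 probes had a Pearson correlation of 0.978 over these arrays, which is given as a description. On the dimmer probe the mean was 6.21 ± 0.32 in LA (SD, n = 4), between 7.72 (PV) and 8.01 (LV) in the next 4 regions, and 9.54 ± 0.56 in PA (n = 4). The brighter probe exceeded the dimmer by 1.56 in LA and by 2.17 in PA on average, so that the difference of PA and LA was smaller on the dimmer probe, by which it was 3.34. The calls of *Gja5* were those of the brighter probe when the dimmer was used alone, a comparison chosen after the data were seen.

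**Figure D2:**
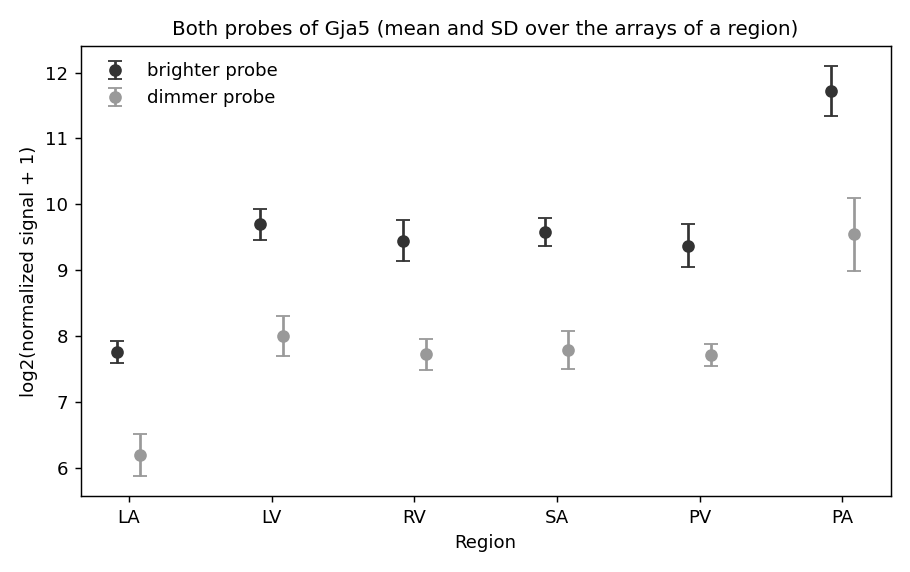
Mean and SD over the arrays of each region of log2(normalized signal + 1) for the brighter and the dimmer probe of *Gja5*. Both probes are lowest in LA (7.77 and 6.21) and highest in PA (11.71 and 9.54).

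Endothelial markers of LA overlapped those of SA and PV, and *Gja5* did not. The log2 of the summed signal of 7 endothelial markers (*Pecam1*, *Cdh5*, *Tie1*, *Tek*, *Kdr*, *Vwf* and *Emcn*), of 8 listed, was 15.30 to 15.68 in LA, 15.35 to 15.57 in SA and 15.24 to 15.48 in PV, whereas the *Gja5* signals of LA lay below every array of both. In LV the endothelial sum was 16.29 to 16.37, and in RV 16.06 to 16.17. The smooth muscle sums of LA, 14.65 to 14.93, lay below those of SA (15.37 to 15.76) and PV (15.59 to 16.08), as *Gja5* did, and overlapped those of LV (14.67 to 14.99), from which *Gja5* of LA was apart. Of 5 markers of arterial endothelium, the sums were 10.28 to 10.82 in LA and 10.41 to 11.18 in LV, and *Sox17* of this list was well above background on no LA or PA array. Markers of the conduction system, 3 in number, gave sums of 12.12 to 12.16 in LA and 10.88 to 11.36 in LV, the reverse of *Gja5*. Of these, *Etv1*, which atrial tissue also expresses, had a mean of 11.8 in LA and 9.79 in LV, and *Cntn2* one of 9.87 in LA and 10.26 in LV. Sums that were lower in LA than in LV, RV, SA and PV without overlap, as *Gja5* was, were those of 3 adipocyte markers (of 4 listed), at 12.75 to 13.60 in LA and 13.69 or more in those regions, and of 3 ventricular myocyte markers, at 14.74 to 15.60 in LA and 15.69 or more. Of the adipocyte markers, *Fabp4* had a lower mean in LA (13.15) than in LV (14.51) and RV (13.94). *Adipoq* (7.90 in LA, 3.87 in LV and 5.85 in RV) was the reverse, as was the dim *Ucp1* (5.44, 4.24 and 4.32). Of the ventricular myocyte markers, *Myl2* was lower in LA (14.37) than in SA (15.70) and PV (15.95). *Myl3* was 13.77 in LA, 13.12 in SA and 14.02 in PV, and *Irx4* (5.52 in LA) was well above background on no SA or PV array. Cardiomyocyte sums of LA, 19.72 to 19.98, lay below those of LV, RV and SA (20.11 or more) and overlapped those of PV. The part of these cell types in the low *Gja5* of LA was not tested.

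PA combined the highest *Gja5* with endothelial marker sums of 14.70 to 15.66, against 15.24 to 16.37 elsewhere, and with arterial endothelium sums of 10.02 to 10.73, against 9.89 to 11.18 elsewhere. Its smooth muscle sums were 18.87 to 19.11. Its fibroblast sums were 17.69 to 17.92, against at most 17.50 elsewhere, though *Pdgfra* (11.2) and *Tcf21* (7.59) had their lowest means in PA. PA replicate 1 had the highest *Gja5*, *Gja4* and *Gja1* of the 4 PA arrays, but not the highest *Gjc1* (704, against 756 on replicate 2). It also had the highest endothelial sum (15.66, against at most 14.93) and the highest sum of 4 atrial myocyte markers (15.13, against at most 12.29). Without this array, *Gja5* was higher in PA than in PV by 2.16 (limma adjusted p = 1.01e-08) and than in LA by 3.77 (adjusted p = 3.45e-12), and *Gja1* was lower in PA than in PV by 1.84 (adjusted p = 2.60e-08). The part of the smooth muscle cells and fibroblasts, and of the tissue mix of PA replicate 1, in the levels of *Gja5* was not tested.

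**Figure D3:**
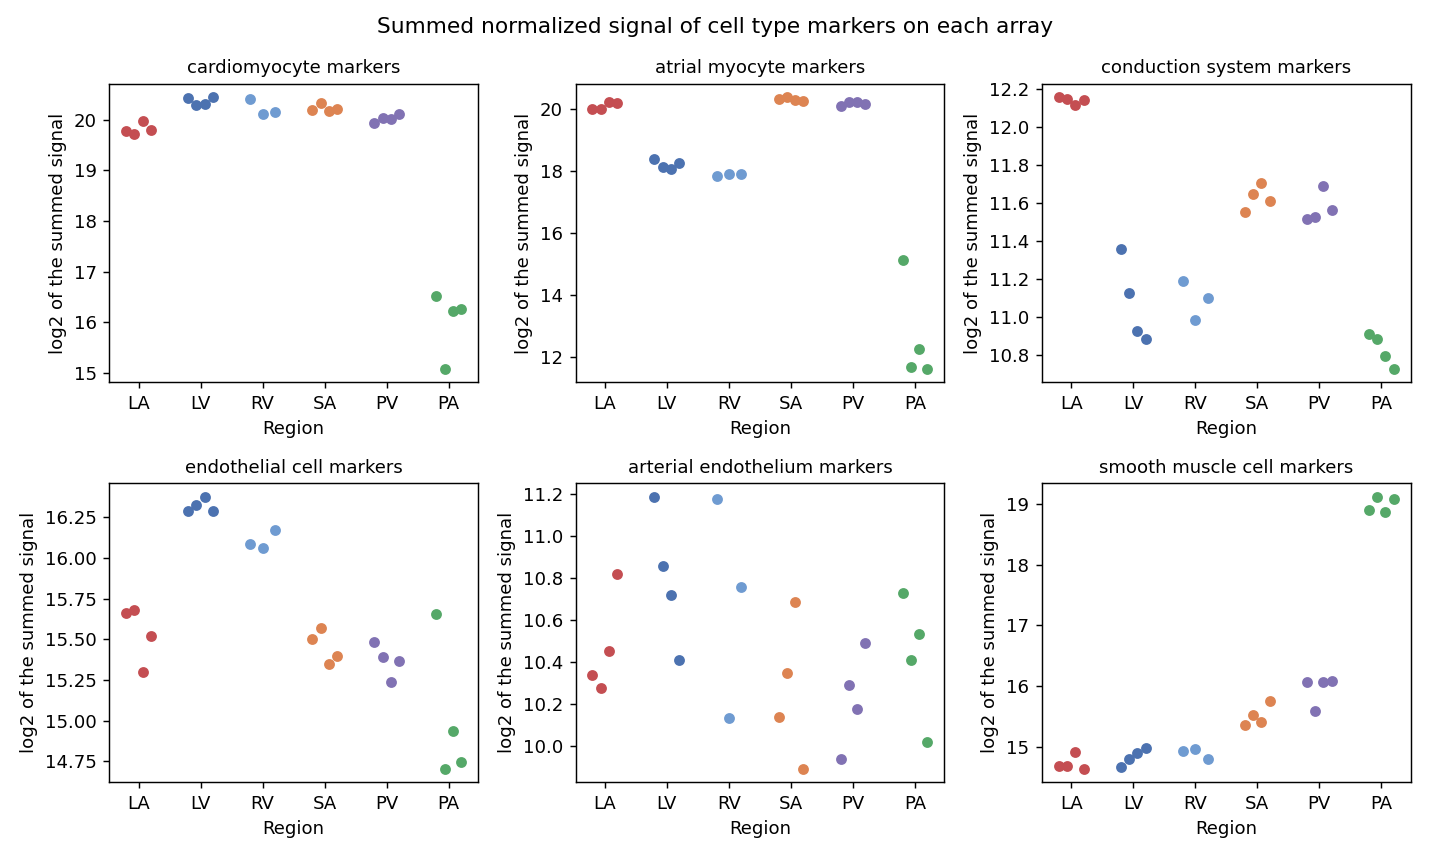
Log2 of the summed normalized signal of the markers of 6 cell types on each of the 23 arrays, by region. Cardiomyocyte and atrial myocyte markers are lowest and smooth muscle markers highest in PA (18.87 to 19.11), and the endothelial sums of LA, SA and PV overlap.

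*Gja4*, or connexin 37 (chromosome 5, 144917791 to 144920324), had the smallest range of the 4 connexins. Its normalized signal was 1702, 1406, 1330 and 1483 in LA, 1810, 2051, 2096 and 2698 in LV, and 1901, 2259 and 1711 in RV. It was 1269, 1603, 1407 and 1515 in SA, 2137, 1511, 1608 and 2041 in PV and 3254, 1968, 2227 and 1861 in PA. LA and SA overlapped each other and lay below all arrays of LV, RV and PA, and PV overlapped both sets.

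The mean log2 signal of *Gja4* was 10.53 ± 0.15 in LA (SD, n = 4), 10.50 ± 0.15 in SA (n = 4), 10.82 ± 0.25 in PV (n = 4), 10.93 ± 0.20 in RV (n = 3), 11.06 ± 0.24 in LV (n = 4) and 11.15 ± 0.36 in PA (n = 4). LA was below LV by 0.54 ± 0.17 (SE, limma adjusted p = 0.0169) and below PA by 0.62 ± 0.17 (adjusted p = 0.00365). SA was below LV by 0.57 ± 0.17 (adjusted p = 0.0154) and below PA by 0.65 ± 0.17 (adjusted p = 0.00236). With 1 array left out, LA was below LV by 0.43 to 0.62 and SA below LV by 0.46 to 0.65, but the calls were not kept throughout. That of LA did not pass without LA replicate 3 (0.49, adjusted p of limma = 0.0526) or without LV replicate 4 (0.43, adjusted p = 0.0674), and that of SA did not pass without LV replicate 4 (0.46, adjusted p = 0.0622) or without SA replicate 1 (0.51, adjusted p = 0.0510). Those from PA passed with each array left out, at a size of 0.45 for LA and 0.48 for SA without PA replicate 1. The difference of PV and PA, 0.33, had an adjusted p of 0.106 and passed only without PA replicate 4 (0.43, adjusted p = 0.0499), and that of RV and SA, 0.43, had an adjusted p of 0.103 and passed only without PA replicate 1 (0.0476). LA minus RV was -0.40 and had an adjusted p of 0.116. LV had higher endothelial sums than LA and SA, and PA had not, and their part in the differences of *Gja4* was not tested.

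Over the 15 pairs of regions, 29 of the 60 differences of the 4 genes passed, 9 for *Gja5*, 8 for *Gja1*, 8 for *Gjc1* and 4 for *Gja4*. All 4 passed between LA and PA, where 52.1% of all genes tested did, and between SA and PA (53.6% of all genes). Of the 4 genes, 3 passed between LV and PA (55.8%), RV and PA (53.6%) and PV and PA (53.4%), and *Gja4* was the one that did not in each.

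Without PA, 12 of 40 differences passed. LA and LV differed in 3 genes (33.8% of all genes tested), LA and RV in 2 (27.2%), LA and SA in 2 (15.3%) and LA and PV in 2 (13.5%). LV and PV (31.6%), RV and PV (25.9%) and LV and SA (26.2%) differed in 1 gene each, *Gja1*, *Gja1* and *Gja4* in this order. None of the 4 genes passed in limma between RV and SA (21.7%), SA and PV (3.49%) or LV and RV (0.522%). At an unadjusted p below 0.05, 2 passed between RV and SA (*Gja1* and *Gja4*), 1 between SA and PV (*Gja1*) and 0 between LV and RV. Between LV and RV the differences were 0.11 ± 0.17 for *Gja1*, 0.14 ± 0.18 for *Gja4*, 0.25 ± 0.21 for *Gja5* and 0.04 ± 0.11 for *Gjc1*.

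**Figure D4:**
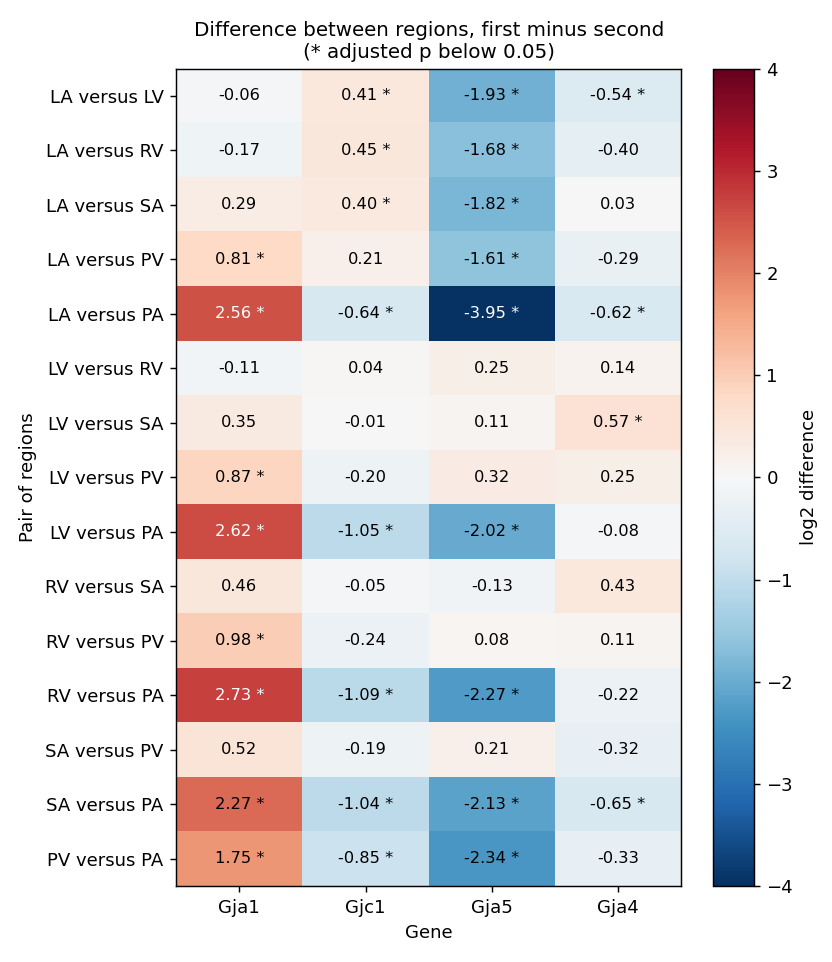
Difference on the log2 scale, first region minus second, of *Gja1*, *Gjc1*, *Gja5* and *Gja4* for the 15 pairs of regions, in red where the first region is higher and in blue where it is lower, with a star at an adjusted p of limma below 0.05. The *Gja5* column holds the extreme value, -3.95 for LA and PA, and the row of LV and RV holds no star.

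The arrays lay on 3 slides, in 2 rows on each, and the share of probes well above background, 58.6% to 79.8%, differed by row. The larger differences had the same direction within each slide and each row that held both regions. *Gja5* was lower in LA than in LV by 1.71 to 2.04, lower in LA than in PV by 1.22 to 1.93 and higher in PA than in PV by 1.81 to 2.86. *Gja1* was higher in PV than in PA by 1.41 to 1.97 and higher in LA than in PV by 0.79 to 0.92. *Gjc1* was higher in LA than in LV by 0.17 to 0.79, and *Gja4* was lower in LA than in LV by 0.38 to 1.02. RV was not on slide 1.

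The specificity measure (SPM) of the study is the mean log2 signal of a region over the Euclidean norm of the 3 means of LA, V and SA, where V joins the 7 arrays of LV and RV. *Gja5* had an SPM of 0.497 in LA, 0.614 in V and 0.613 in SA, and its value in LA exceeded that of only 3.65% of 15809 genes. *Gjc1* had its highest value in LA (0.596, against 0.567 in V and 0.569 in SA), and *Gja4* in V (0.595, against 0.569 in LA and 0.567 in SA). *Gja1* had 0.580 in LA, 0.584 in V and 0.568 in SA. In limma's F-test over the 15 arrays of LA, V and SA, 3 of 4 genes passed, where 40.5% of all genes did, with an adjusted p of 6.51e-07 for *Gja5*, 0.00206 for *Gjc1*, 0.00340 for *Gja4* and 0.0785 for *Gja1*. *Gja1* passed without SA replicate 2 (adjusted p = 0.0332).

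Over all 23 arrays the log2 signals of *Gja1* had a Pearson correlation of -0.76 with those of *Gja5* and -0.81 with those of *Gjc1*, and *Gja5* one of 0.61 with *Gja4* and 0.52 with *Gjc1*. The arrays share their scaling and fall into PA and the rest, and these values are descriptions. By the same measure over the 13100 genes that all arrays of some region detected above background, the 3 genes most like *Gja1* were *Rxra*, a retinoid X receptor (0.984), *Sh3bp5* (0.979) and *Cdh2*, the N-cadherin of the intercalated disc (0.977). Those most like *Gja5* were *Atp2a3*, a calcium pump of the endoplasmic reticulum (0.946), *Klhdc8a* (0.940) and *Mk1* (0.939). *Gjc1* was most like *Zfp717* (0.961), *Poldip3* (0.960) and *Pdia4* (0.953), and *Gja4* was most like *Unc5b*, a netrin receptor (0.843), *Farp1* (0.835) and *Fmnl3* (0.831). *Atp2a3*, *Klhdc8a* and *Mk1* were, as *Gja5* was, highest in PA and lowest in LA.

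Of 15 other connexin genes listed, 13 had a probe, and 7 of them were detected above background by all arrays of some region. *Gja3*, a connexin known from the lens, was 9.85 ± 0.14 in LA (SD, n = 4), 8.05 ± 0.12 in LV (n = 4), 9.12 ± 0.34 in RV (n = 3), 9.63 ± 0.17 in SA (n = 4), 9.37 ± 0.18 in PV (n = 4) and 5.58 ± 0.53 in PA (n = 4, with 2 of 4 arrays well above background). It was higher in LA than in LV by 1.80 ± 0.20 (SE, limma adjusted p = 6.82e-07), opposite to *Gja5*, and higher in PV than in PA by 3.79 ± 0.20 (adjusted p = 2.47e-12). *Gjd4* was higher in PA than in PV by 1.75 ± 0.45 (adjusted p = 0.00269), and outside PA only some of its arrays were well above background. *Gjc3* had a range of 1.34 and an adjusted p of 0.0436 in the F-test. *Gjb1* and *Gjb5* had ranges of 0.26 and 0.69 and did not pass the F-test (adjusted p = 0.995 and 0.691).

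Of the 13 other connexins, 1 was higher and 1 lower in LA than in LV, where 16.6% of all genes tested were higher and 17.2% lower. None was higher and none lower in SA than in LA in limma, where 7.03% and 8.26% of all genes were, and 0 passed at an unadjusted p below 0.05 either. In PA 5 were higher and 1 lower than in PV, where 29.7% and 23.7% of all genes were. The medians of the 13 differences were -0.09 for LA minus LV, 0.01 for SA minus LA and 0.12 for PA minus PV, beside -0.08, 0.01 and 0.13 for all genes tested.

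Pannexins form channels of a single membrane and do not share the sequence of connexins. *Panx1* was 10.18 ± 0.16 in SA (SD, n = 4), 9.26 ± 0.23 in PV (n = 4), 8.65 ± 0.14 in LA (n = 4), 6.51 ± 0.27 in RV (n = 3), 6.38 ± 0.42 in LV (n = 4) and 5.15 ± 0.52 in PA (n = 4, with 3 of 4 arrays well above background). It was higher in SA than in LA by 1.53 ± 0.22 (SE, limma adjusted p = 0.000111) and in LA than in LV by 2.27 ± 0.22 (adjusted p = 1.63e-07). *Panx2* was highest in LA (9.88 ± 0.05, SD, n = 4), above LV by 2.45 ± 0.23 (SE, adjusted p = 1.11e-07) and above SA by 0.99 ± 0.23 (adjusted p = 0.00628). Both were well above background on 3 of 4 PA arrays and lower in PA than in PV, by 4.11 and 1.93, and the cardiomyocyte marker sums were lower there too (15.08 to 16.52 in PA, 19.93 to 20.12 in PV), whose part in these differences was not tested. *Panx3* was well above background on 1 array.

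Of 17 genes of the intercalated disc, the junction in which gap junctions of myocytes lie, 13 had a probe and 12 passed the F-test, where 64.4% of all genes tested did. In PA, 11 were lower and 1 higher than in PV, where 23.7% of all genes were lower and 29.7% higher, with a median difference of -1.92 beside 0.13 for all genes. The cardiomyocyte marker sums moved with them, at 15.08 to 16.52 in PA and 19.93 to 20.12 in PV, and the part of the myocytes in these differences was not tested. *Xirp2*, *Nrap*, *Pkp2* (plakophilin 2) and *Dsc2* (desmocollin 2) had the widest ranges, all with their lowest mean in PA. The range was 6.15 for *Nrap*, 6.14 for *Pkp2* and 4.27 for *Dsc2*, which was well above background on 3 of 4 PA arrays. *Xirp2* was well above background on only 1 of 4 PA arrays, so that its level there is not well measured, and its mean was 11.47 in LV. In LA, 5 were higher and 6 lower than in LV (16.6% and 17.2% of all genes), with a median of -0.05 beside -0.08 for all genes. Among them were *Dsc2*, at 9.99 ± 0.14 in LA and 8.49 ± 0.33 in LV (SD, n = 4 each, limma adjusted p = 1.78e-05), and *Nrap*, lower by 1.20 ± 0.11 (SE, adjusted p = 5.43e-08). Between LA and SA, 2 were higher and 1 lower in SA (7.03% and 8.26% of all genes), with a median of -0.09 beside 0.01 for all genes.

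Of 10 transcription factors known to act on connexin genes, 8 had a probe and 7 passed the F-test (64.4% of all genes tested). *Shox2*, a factor of the sinoatrial node, was 11.40 ± 0.11 in SA (SD, n = 4), 11.03 ± 0.11 in PV (n = 4) and 7.90 ± 0.28 in LA (n = 4), and it was well above background on no LV or RV array, so that SA was at least 93.5-fold higher than LV. *Tbx5* was higher in LA than in LV, where 3 of 4 arrays were well above background, by 2.15 ± 0.33 (SE, limma adjusted p = 3.92e-05), and *Tbx18* by 2.14 ± 0.17 (adjusted p = 1.33e-08). *Nkx2-5* was lower in PA, with 3 of 4 arrays well above background, than in PV by 4.65 ± 0.20 (adjusted p = 2.20e-13), whereas *Tbx18* was higher by 1.97 ± 0.17 (adjusted p = 7.30e-09). Of the 8 factors, 3 were higher and 1 lower in LA than in LV, where 16.6% of all genes were higher and 17.2% lower. In SA 2 were higher and none lower than in LA in limma (2 lower at an unadjusted p below 0.05), where 7.03% and 8.26% of all genes were. In PA 1 was higher and 6 lower than in PV, where 29.7% and 23.7% of all genes were. The cardiomyocyte sums were 15.08 to 16.52 in PA and 19.93 to 20.12 in PV, the smooth muscle sums 18.87 to 19.11 and 15.59 to 16.08, and their part in the differences of the factors was not tested. The medians over the factors were 0.26, 0.09 and -1.88 in the order LA minus LV, SA minus LA and PA minus PV, beside -0.08, 0.01 and 0.13 for all genes. Called differences of the listed genes, 92 in number over 6 pairs of regions, kept their sign when the arrays were scaled to the 75th percentile or quantile normalized.

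**Figure D5:**
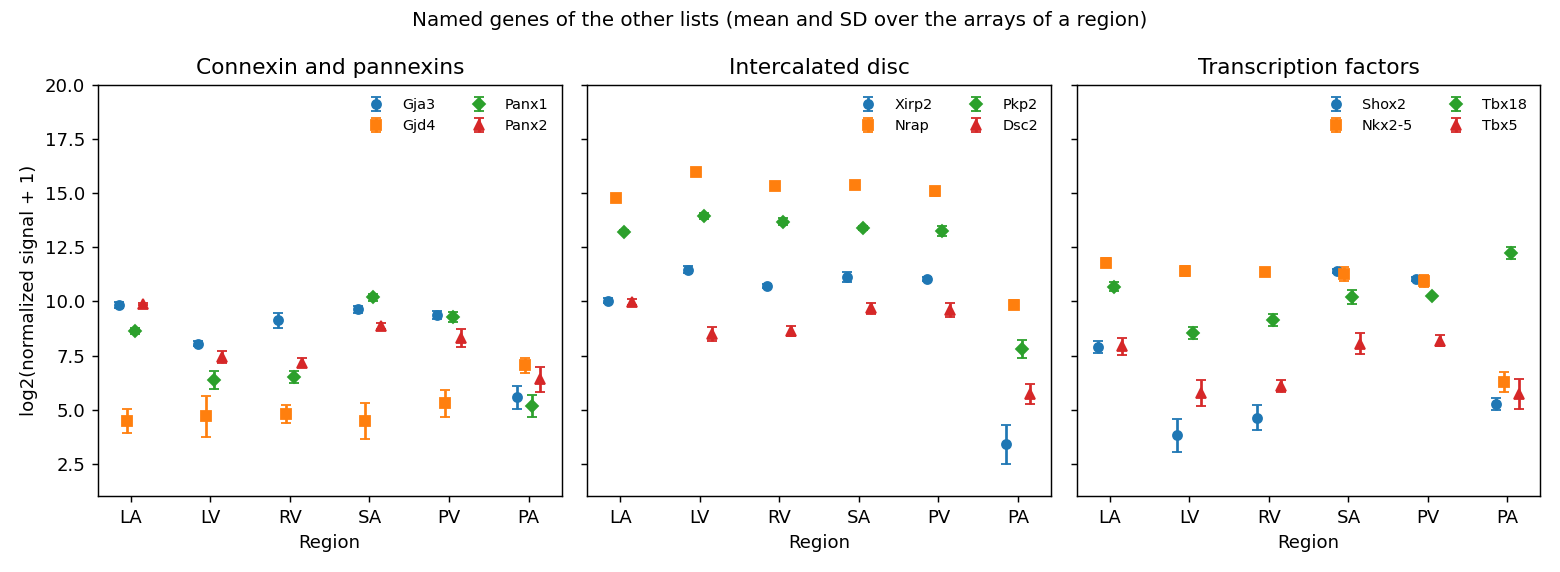
Mean and SD over the arrays of each region of log2(normalized signal + 1) for *Gja3*, *Gjd4*, *Panx1* and *Panx2* (left), 4 genes of the intercalated disc (middle) and 4 transcription factors (right). *Panx1* and *Shox2* have their highest mean in SA (10.18 and 11.40), and the 4 disc genes have their lowest in PA.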

How the data were processed

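The data are 23 single-color Agilent SurePrint arrays of 6 regions of the rat heart and great vessels, with 3 arrays of RV and 4 of each other region, grouped by the region in their labels. The scanner output was made with Agilent Feature Extraction 11.0.1.1, per the submitters' processing notes. Per the file headers, the scanner's intensity is background-subtracted and detrended within the array. The normalized intensities deposited by the authors, which were used here, equal these values times a factor per array (0.881 to 1.52) that brings all arrays to a common 90th percentile, and are linear. This held within 2% for 99.6% to 99.8% of probes.

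Of 45596 probes, 156 with a missing value were removed. Probes were named by matching accessions to RefSeq (GRCr8), which gave a symbol to 21047 probes. Each array's highest value among the probes of a gene was used as log2(signal + 1), and the added 1 shrinks fold changes of dim genes. Genes above 4 on at least 1 array were tested, 16089 over the 6 regions and 15809 over LA, V and SA. The lowest signal well above background was 13.3 to 49.6, no spot was saturated, and the number of arrays limits the precision.

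All regions were fitted together in R 4.3.3 with limma 3.58.1, with an F-test over the 6 regions, contrasts for the 15 pairs, a separate fit over LA, V and SA, and Benjamini-Hochberg adjustment over all genes within each contrast at 0.05. The F-test takes the place of the analysis of variance of the methods, which was an alternative. The fit was tested on simulated data. Where a gene was well above background on no array of a region, the region was set at the lowest such signal of each array and the fold is a lower bound. Plots were made in matplotlib 3.10.9 (Python 3.11.15, pandas 2.3.3).

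Named genes were the 4 connexins, the other connexins and pannexins that all arrays of some region detected above background, the 4 genes of each other list with the widest range, and the 3 genes most correlated with each connexin. *Gja6*, *Gjb2*, *Gjb6*, *Gjd2* and *Gje1* fell outside this rule, and some other connexins are not reported here. Genes of the lists without a matching probe were left out. The connexins and the lists were chosen with earlier results of these data known. The alternatives were scanner intensities at the 90th or 75th percentile, quantile normalization, normexp background correction (offset 50), a pseudocount of 16, other filters and probe choices, slide, row or replicate number as a block, only the arrays compared, a trend in the prior variance, adjustment over all 15 pairs, each array left out and, added after the data were seen, the dimmer probe of *Gja5*.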

Additional observations from a re-analysis of the deposited data

Results flagged for a closer look

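No array of LA, LV, SA, PV or PA stood apart from the others of its region for *Gja1*, *Gja4*, *Gja5* or *Gjc1* by Dixon's test, which was applied to 55 sets of 4 arrays of the connexins and pannexins reported here and marks about 1 set in 20 by chance, and RV, with 3 arrays, was not tested. It marked 4 sets, all of other connexins and pannexins, each with the log2 signal of 1 array far from the other 3. *Gja3* was 8.23 on LV replicate 1 and 7.97 to 8.0 on the others of LV. *Gjb1* was 7.99 on PA replicate 4 (4.69 to 5.14 on the others of PA), *Panx2* was 5.54 on the same array (6.62 to 6.76), and *Gjb5* was 5.28 on SA replicate 4 (6.99 to 7.09).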

How the results depend on the processing

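Of the 29 called differences between pairs of regions, 24 were called in all 17 other settings and with each of the 23 arrays left out in turn, and none changed direction. The 5 that were lost at least once were those of *Gjc1* between LA and LV, RV and SA, with normexp, and those of *Gja4* between LA and LV and between LV and SA, with 1 array left out. Of 31 differences not called, 4 passed at least once, and a change of sign of a difference not called was not counted. The F-tests over the 6 regions were passed by all 4 genes in every setting. Over LA, V and SA, the range of the means of *Gja1*, 0.40 with an adjusted p of 0.0785, passed with a trend in the prior variance of limma (0.40, adjusted p = 0.0455) and without SA replicate 2, and with 1 array left out it was 0.31 to 0.50. The number of called differences was 26 with normexp, 31 with adjustment over all 15 pairs jointly and 27 to 30 with 1 array left out.

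Replicate numbers are shared by the regions, but by the median, arrays with the same number deviated together no more than others. The correlation of their deviations from the regional means was -0.38 to 0.34 over 55 pairs (median -0.043), and over 0.1 in 12 of them. The median was 0.00098 for arrays with different numbers, 0.085 for those of the same row and -0.101 for those of different rows. These values do not show which arrays came from the same rat. With the replicate number as a block the count of called differences was 29, as without it. Limits are the 3 or 4 arrays of a region, the unknown share of rats between arrays, the single probe of *Gja1*, *Gja4* and *Gjc1*, and the mixed cell types of each region.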
